A study of Homo sapiens with 3 samples.

Results

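Intermediate filaments are the ropelike cytoskeletal polymers whose subunits differ from one lineage to the next, and 10 of their genes were followed in HEK293T cells: the vimentin gene VIM, the nestin gene NES, the alpha-internexin gene INA, the neurofilament genes NEFL, NEFM and NEFH, the keratin genes KRT8, KRT18 and KRT10, and the lamin gene LMNB1. They were chosen by name as genes used to tell neural from epithelial cells, and they are 10 of the 61193 genes to which the transcripts of the deposited tables could be joined. HEK293T is an established cell line from human embryonic kidney into which the SV40 large T antigen was introduced, and it stands for no single kidney cell type. All libraries came from 1 condition, cells collected the day after seeding with no treatment named, in 3 replicates that the study describes as independent and biological, so nothing was compared between conditions. The QuantSeq 3′ mRNA-seq kit used primes at the poly(A) tail and yields reads near the 3′ end of a transcript. The sample labels name genomic DNA as the material, whereas the study's methods and the kit describe RNA, and the values are treated as RNA here.

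Keratins form obligate pairs of a type I and a type II chain in epithelia, with KRT8 and KRT18 as the pair of simple epithelia and KRT10 a chain of the upper epidermis. Vimentin is the filament of mesenchymal and many cultured cells, nestin that of neural progenitors, alpha-internexin that of young neurons, and the light, medium and heavy neurofilament chains follow in maturing axons. Lamin B1 lines the inner face of the nuclear envelope. Because RNA was taken from whole cultures, fewer cells with a transcript and less of it per cell cannot be told apart.

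The 3 libraries held 6262175 to 8521624 counts. A count of 0 allows up to 3 counts, or 0.427, 0.479 and 0.352 counts per 1000000 (CPM) in the replicates in turn. These limits and the intervals given hold for counting error alone, as reads that carry no molecular identifier may be copies of 1 molecule. Replicate 3 stood apart, with 25.8% of its counts on the mitochondrial genome, compared with 9.59% in replicate 1 and 5.70% in replicate 2. CPM was used within a gene, and TPM (which divides by transcript length before scaling) between genes. An exact two-sided permutation test of 3 values against 3 cannot go below p = 0.1, so levels are ordered by whether their ranges overlap and no test is given. The ranges take no account of the pairing of genes within a library. For some genes the order within each library is therefore given beside them.

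Promoter sequences are shown first, because the study asked where C-rich and G-rich strands fold at promoters. The RefSeq table for GRCh38.p14 held a promoter for 6 of the 10 genes. The 250 bases before the start site of INA and NES, the best counted genes, of LMNB1 (the downstream of its 2 listed starts) and of VIM, shown for contrast, are given 5′ to 3′ on the strand of the gene. Capitals mark a putative i-motif-forming stretch, defined as 4 tracts of at least 3 Cs with loops of 0 to 7 bases.
INA, chr10:103276888-103277137, plus strand: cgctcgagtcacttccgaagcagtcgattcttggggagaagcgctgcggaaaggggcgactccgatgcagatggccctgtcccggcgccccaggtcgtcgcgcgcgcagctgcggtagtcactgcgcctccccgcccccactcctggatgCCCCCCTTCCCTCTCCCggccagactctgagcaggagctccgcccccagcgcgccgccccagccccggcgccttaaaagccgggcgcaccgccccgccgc
NES, chr1:156677408-156677657, minus strand: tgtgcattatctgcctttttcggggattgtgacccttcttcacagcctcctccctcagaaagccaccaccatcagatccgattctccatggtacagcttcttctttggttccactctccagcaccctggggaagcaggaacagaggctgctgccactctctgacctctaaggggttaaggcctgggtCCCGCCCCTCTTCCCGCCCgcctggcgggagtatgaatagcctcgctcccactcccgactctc
LMNB1, chr5:126776886-126777135, plus strand: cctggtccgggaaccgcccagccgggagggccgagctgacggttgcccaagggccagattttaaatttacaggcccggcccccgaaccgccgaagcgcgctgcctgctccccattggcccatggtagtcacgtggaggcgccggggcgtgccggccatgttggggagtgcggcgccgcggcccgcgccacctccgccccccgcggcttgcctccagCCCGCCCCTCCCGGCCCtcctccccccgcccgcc
VIM, chr10:17227991-17228240, plus strand: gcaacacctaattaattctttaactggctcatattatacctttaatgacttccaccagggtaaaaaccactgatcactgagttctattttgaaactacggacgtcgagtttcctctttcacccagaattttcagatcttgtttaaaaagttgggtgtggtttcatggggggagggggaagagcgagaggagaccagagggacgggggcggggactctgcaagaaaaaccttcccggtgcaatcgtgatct
The INA stretch lies 100 to 84 bases before the start site and counts a run of 6 Cs as 2 tracts with a loop of 0. The NES stretch lies 63 to 45 bases before the start site and the LMNB1 stretch 34 to 18 bases before it. No such stretch was in the windows of VIM, KRT8, KRT10 or the upstream LMNB1 start. The same search with Gs matched none of the windows. The KRT8 window lies before the start of KRT8-215, a transcript with 0 counts. The start of KRT8-217, which held all KRT8 counts, was not searched. The VIM window likewise lies before the start of VIM-209, a transcript with 0 counts. The starts of VIM-205, VIM-203 and VIM-210, which held all VIM counts, lie further downstream and were not searched. What is given for VIM therefore describes the VIM-209 start alone. Of 35116 promoter windows of this length, 13.3% held the C pattern and 14.4% the G pattern. The GC box GGGCGG, searched on both strands, was present 4 times before INA, 4 times before the downstream LMNB1 start, 2 times before NES and 1 time before VIM, and in 42.6% of all windows. A GC box can overlap the C pattern, since CCGCCC holds a tract of 3 Cs. The TATA box TATAAA, searched on the gene's strand, was found before KRT10 and in 6.80% of all windows. GC content was 72.8% before INA, 75.6% before the downstream LMNB1 start, 58.0% before NES and 46.0% before VIM, compared with a median of 58.0%. Matches of this kind are descriptions of letters, not measurements of folding or of binding, and no i-motif data were analysed here.

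Of the 10 genes, 5 had more than 3 counts in every replicate and are called detected: INA, NES, KRT8, NEFH and LMNB1. The background is 39.5% of 19913 nuclear protein-coding genes. VIM and KRT10 had counts in some libraries only, and KRT18, NEFL and NEFM had 0 counts in all of them. The plot of counts by gene and replicate shows these groups.

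**Figure D1:**
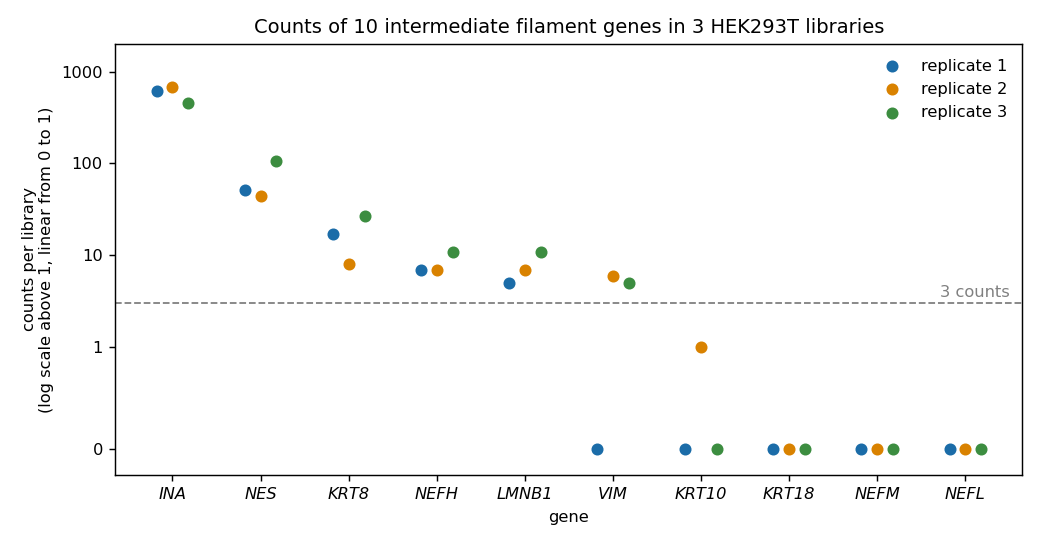
Counts of the 10 genes (x axis) in each of 3 HEK293T libraries (y axis, log scale above 1 and linear between 0 and 1), 1 point per replicate, with a dashed line at 3 counts. INA lies between 460 and 672 counts and NES between 44 and 106, while KRT18, NEFM and NEFL are at 0 in all libraries.

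INA (ENSG00000148798, chr10:103277138-103290346 in GRCh38, plus strand) was far the best counted, with 610, 672 and 460 counts in replicates 1, 2 and 3. These are 86.9, 107 and 54.0 CPM, with a mean of 82.7 ± 26.9 CPM (SD, n = 3), and replicate 3 was the lowest on either scale. Per length, INA had 38.8 ± 16.5 TPM (SD, n = 3), above 76.5% of the detected protein-coding genes. The gene has a single listed transcript, INA-201, whose bases lie in no other listed transcript of the strand. The first bases of INA overlap NT5C2, a nucleotidase gene on the opposite strand, which had 4, 6 and 15 counts.

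NES (ENSG00000132688, chr1:156668763-156677407, minus strand) followed with 52, 44 and 106 counts. These are 7.41, 7.03 and 12.4 CPM, a mean of 8.96 ± 3.02 CPM (SD, n = 3), and here replicate 3 was the highest. The level per length was 2.32 ± 0.459 TPM (SD, n = 3), above 21.0% of the detected genes, whereas by CPM, which does not divide by its length of 5568 bases, NES lay above 40.4% of them. The ranges of INA and NES did not overlap on either scale, and the ratio of INA to NES in TPM was 20.1, 26.2 and 7.43 in replicates 1, 2 and 3. By counts the ratio was 11.7, 15.3 and 4.34. The ratio of these genes within a library does not depend on the library total. NES held 7.85% of the counts of the pair in replicate 1 (52 of 662, 95% Wilson interval 6.04% to 10.2%), 6.15% in replicate 2 (44 of 716, 4.61% to 8.15%) and 18.7% in replicate 3 (106 of 566, 15.7% to 22.1%). The intervals of replicates 1 and 2 overlapped, and that of replicate 3 lay above both. The order of the pair was the same in every library, but its size was not, as the plot of the NES share shows. The mitochondrial share was also highest in replicate 3, and its part in this difference was not tested.

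**Figure D2:**
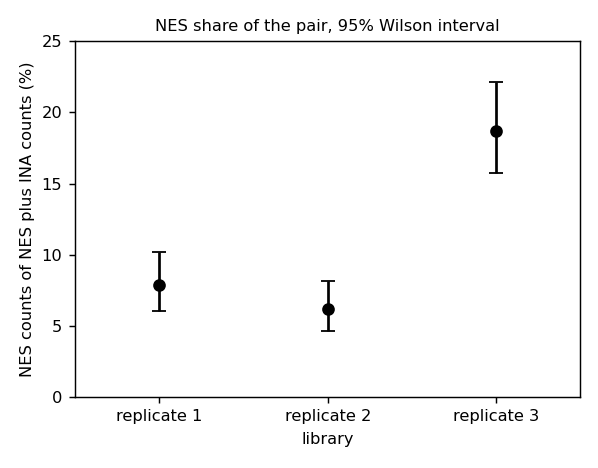
Share of NES among the counts of NES plus INA (y axis, percent) in each of 3 libraries (x axis), with 95% Wilson intervals as bars. Replicate 3, at 18.7%, lies above replicates 1 and 2, at 7.85% and 6.15%.

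Of the 3 neurofilament chains, the heavy chain was detected and the others had 0 counts. NEFH (ENSG00000100285, the heavy chain, chr22:29480218-29491390, plus strand) had 7, 7 and 11 counts, 1.14 ± 0.148 CPM and 0.441 ± 0.0377 TPM (SD, n = 3). It has 1 listed transcript with a 3′ end of its own, as INA and NES do. Genes with 1 listed transcript were detected in 26.9% of 3000 cases. The ratio of INA to NEFH in TPM was 102, 112 and 48.8 in replicates 1, 2 and 3. NEFL (ENSG00000277586, the light chain, chr8:24950955-24956721, minus strand) had 0 counts in every library although the last 300 exonic bases of its canonical transcript lie in no other listed transcript. This allows up to 3 counts per library, so NEFL was not detectable at this depth, whereas NEFH had 7 to 11 counts. NEFL-201 is 4082 bases long in the deposited tables and 3584 bases in GENCODE v44, so its end may be drawn elsewhere in the authors' annotation. NEFM (ENSG00000104722, the medium chain, chr8:24913758-24919098, plus strand) also had 0 counts, but every base of its 300-base 3′ end belongs to more than 1 of its 6 listed transcripts. The long noncoding RNA gene ENSG00000272163, which overlaps the start of NEFM on the opposite strand from 24912163 to 24914717, had 188, 223 and 251 counts, or 30.6 ± 4.53 CPM (SD, n = 3). The strand setting of the counting is not given in the sources used here, so reads of the 2 strands may not have been separated where these genes overlap. Of the other type IV filament genes, SYNM (synemin) had 0 counts, with an end shared throughout. Long noncoding RNA genes on the opposite strand of NEFH (ENSG00000282816) and NEFL (ENSG00000272157) had 0 counts too.

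Among the keratins, KRT8 alone was detected. KRT8 (ENSG00000170421, chr12:52897187-52949954, minus strand) had 17, 8 and 27 counts, 2.29 ± 0.952 CPM and 1.35 ± 0.433 TPM (SD, n = 3), with replicate 3 the highest. All 52 counts were on KRT8-217, 1 of its 17 listed transcripts, which ends 49423 bases upstream of the 3′ end of the canonical transcript and has a 3′ end that no other listed transcript shares. The canonical transcript was not analysed here as a row of its own, and 1.00% of its 300-base end belongs to just 1 listed transcript. The KRT8 counts therefore lie far from the annotated end of the canonical mRNA. KRT18 (ENSG00000111057), the type I partner of KRT8, lies next to it on the plus strand from 52948871 to 52952906, partly over the first bases of KRT8-217, and had 0 counts on all 7 listed transcripts. Its 300-base end has 2.00% of bases in 1 transcript only, and 65.2% of the 31-base words of this end also occur in listed transcripts of other genes.

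Reads did fall on processed pseudogenes of KRT18, which are reverse-transcribed copies scattered over the genome. The 67 annotated KRT18 pseudogenes together had 58, 62 and 90 counts, or 9.58 ± 1.18 CPM (SD, n = 3), spread over 33 of them. Only 2 of the 67 were detected. The share of all annotated pseudogenes with counts was not worked out, so 33 of 67 is not read as high or low. NES, a single gene, had 52, 44 and 106 counts in the same libraries, and the parent gene KRT18 had 0. The highest were KRT18P54 (ENSG00000250834), on chromosome 4, with 9, 9 and 12 counts, and KRT18P18 (ENSG00000261764), on chromosome 16, with 8, 5 and 11 counts. Of the words of KRT18P54, 0% occur in KRT18 transcripts, and of those of KRT18P18, 8.65%. The 33 pseudogene transcripts with counts shared a median of 8.30% of their words with KRT18, and the 37 without counts 4.12%. Of 51 KRT8 pseudogenes, 7 had counts, with 10, 12 and 16 in all. The 1 detected, KRT8P12 (ENSG00000229320) on chromosome 3, held 5, 9 and 10 of these counts. Where a read matches several places, its count is uncertain, since the counting of such reads is not given in the sources used here. The single NEFM pseudogene, NEFMP1, had 0, 1 and 2 counts, and those of NEFH and NEFL had 0.

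KRT10 (ENSG00000186395, chr17:40818117-40822614, minus strand) had 0, 1 and 0 counts and so never passed the limit of 3. Its 2 listed transcripts end at the same base in GENCODE v44, but KRT10-202 is 583 bases long in the deposited tables and 2163 bases in that annotation, so the sharing of its end in the authors' annotation is uncertain. KRT10-AS1, a noncoding gene on the opposite strand, had 6, 8 and 5 counts. Over the whole family, 45 of 54 keratin genes had 0 counts in every library and 1 was detected. There are 31 keratin genes with a 300-base 3′ end wholly of their own, and 0 of these were detected. The background is 56.3% of the 7726 protein-coding genes with such an end. Most of these keratins have 1 listed transcript, and genes of that kind were detected in 26.9% of 3000 cases. KRT8, KRT18 and KRT19 are not among the 31, with 1.00%, 2.00% and 32.3% of their ends in a single transcript. KRT19, a keratin of simple epithelia, had 2, 0 and 0 counts.

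VIM (ENSG00000026025, chr10:17228241-17237593, plus strand) had 0, 6 and 5 counts in replicates 1, 2 and 3, or 0, 0.958 and 0.587 CPM. Replicate 1 was under the limit of detection and the others just above it, so VIM was not called. The canonical VIM-209 and the protein-coding VIM-201 had 0 counts, and the 11 counts lay on VIM-205, VIM-203 and VIM-210. Of these, VIM-205 took 7 counts and ends 6500 bases before the end of VIM-209, with a 3′ end of its own. The last 300 exonic bases of VIM-209 are shared throughout, by VIM-201, VIM-203 and VIM-206 among others, and the end of the common VIM mRNA could not be placed on 1 row. VIM-AS1 and ENSG00000234961 on the opposite strand had 0 counts. Of the other type III genes, DES (desmin) had 6, 5 and 3 counts, and GFAP and PRPH had 0. The end of DES is shared throughout, and those of GFAP and PRPH hold 0.667% and 12.7% of their own.

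LMNB1 (ENSG00000113368, chr5:126776623-126837020, plus strand) had 5, 7 and 11 counts, 1.04 ± 0.297 CPM and 0.876 ± 0.234 TPM (SD, n = 3). Most of them, 18 of 23 counts, were on LMNB1-202, which ends 17786 bases before the canonical transcript and has 30.7% of its end to itself. The canonical LMNB1-201 had 0, 1 and 3 counts, and 2.00% of its end is its own. LMNB2, the other B-type lamin, had 6706, 6599 and 5940 counts, 294 ± 92.1 TPM (SD, n = 3), with a 3′ end that lies wholly in a single transcript. LMNA, the A-type lamin, had 17, 7 and 60 counts, with an end shared throughout and replicate 3 the highest. The type V lamins were thus all detected, and LMNB2 lay above LMNB1 and LMNA in every library.

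In the order of levels, INA and NES were separate from each other and NES was separate from KRT8 on either scale. Below them the ranges overlapped between neighbours in CPM, from KRT8 through NEFH, LMNB1 and VIM to KRT10. Within each library, KRT8 had more counts than NEFH (17 and 7, 8 and 7, 27 and 11) and LMNB1 more than VIM (5 and 0, 7 and 6, 11 and 5). NEFH and LMNB1 had the same counts in replicates 2 and 3, and NEFH had more in replicate 1 (7 and 5). In TPM the order was INA, NES, KRT8, LMNB1, VIM, NEFH and KRT10, and NEFH was then separate from KRT10. LMNB1 was above NEFH in TPM in 3 of 3 libraries, by 0.624 to 0.406, 1.09 to 0.481 and 0.919 to 0.435. As LMNB1 had more counts in none of them, this order follows from the division by length. LMNB1-202, with most LMNB1 counts, has 1572 bases, and NEFH-201 has 3795. The SD of INA was 21.8% of its mean when mitochondrial counts were left out of the total, where Poisson counting alone gives 4.15%. For NES these were 47.9% and 12.2%, and for KRT8 52.8% and 24.0%. The spread of LMNB1 (38.7% and 36.1%) and NEFH (25.8% and 34.7%) was near that of counting. The median over 6265 nuclear genes with a mean of at least 50 counts and none at 0 was 14.8%, and 31.1% of them varied at least as much as INA and 5.08% at least as much as NES. With mitochondrial counts left out, the log2 ratio of replicate 3 to the mean of replicates 1 and 2 was -0.53 for INA and 1.10 for NES, whereas the middle 50% of these genes lay between -0.16 and 0.44. KRT8, NEFH and LMNB1 were also highest in replicate 3 on that scale.

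Nearly all counts were on transcripts with a 3′ end of their own, as the plot of counts by transcript shows. The genes have 55 listed transcripts, and 11 of them had counts. Of the 6 transcripts whose last 300 exonic bases lie in no other listed transcript, 5 had counts, and these held 2028 of all 2056 counts. INA-201 alone held 1742 of them, and INA, NES and NEFH have 1 listed transcript each. The others were KRT8-217 with 52 counts and VIM-205 with 7. Of the 38 whose end is shared throughout, 3 had counts, with 5 counts in all, and of the 11 in between, 3 had counts. Over all nuclear protein-coding genes, 56.3% of the 7726 with an end wholly in a single listed transcript were detected, compared with 26.2% of the 8113 with an end shared throughout. Among the 10 genes, the ends of INA, NES, NEFH and NEFL are wholly their own, and 3 of these 4 were detected. The ends of VIM, KRT10 and NEFM are wholly shared. Those of KRT8, LMNB1 and KRT18 have 1.00% or 2.00% of their bases in a single listed transcript, which for KRT8 is not the canonical one. How reads on shared bases were counted is not given, so a value at or near 0 for these 6 genes is not read as absence of their mRNA. The same holds for other genes named here whose end is shared in whole or in large part. The poly(A) signal AATAAA occurs within the last 50 bases of the canonical transcript of 9 of the 10 genes, 21 to 31 bases before the end, and not in that of NEFH. KRT8-217 and LMNB1-202, which took the counts of their genes, also have it, 23 and 29 bases before their ends.

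**Figure D3:**
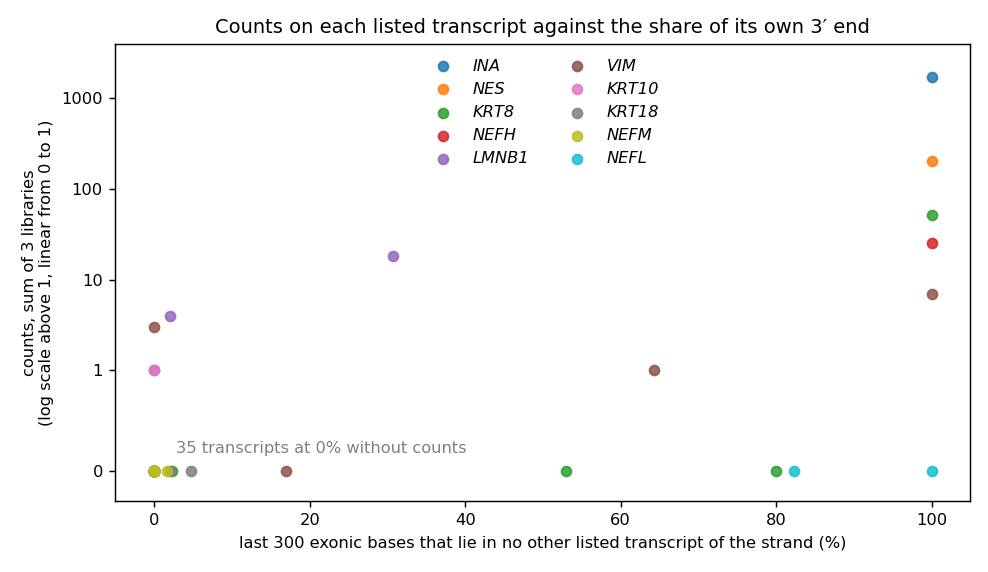
Counts on each of the 55 listed transcripts of the 10 genes, summed over 3 libraries (y axis, log scale above 1 and linear between 0 and 1), against the percentage of its last 300 exonic bases that lie in no other listed transcript of the strand (x axis), coloured by gene. Points at 100% reach 1742 counts, whereas 35 transcripts at 0% have no counts and the highest at 0% has 3.

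The counts of detected genes in the wider lists are read against the background of 39.5% of protein-coding genes, which was 26.2% for ends shared throughout and 56.3% for ends in a single transcript. Of 16 epithelial markers 1 was detected, EPCAM, an adhesion molecule, with 6, 4 and 4 counts, and 8 were at 0 in every library. CDH1 (E-cadherin), whose end lies wholly in a single transcript, had 1, 0 and 4 counts. The 3 highest by TPM were TJP3 with 0, 3 and 7 counts, EPCAM and ESRP2 with 4, 1 and 5 counts. The summed level of the list was 2.06 to 3.31 TPM over the libraries. Of 16 neuronal and neural progenitor markers 6 were detected, near the background, and the list summed to 82.6 to 143 TPM. In every library 5 were at 0: DCX, ELAVL4, MAPT, SNAP25 and TUBB3. SOX2, a transcription factor of neural and other stem cells, led with 89.0 ± 26.3 TPM (SD, n = 3), followed by SYP, a synaptic vesicle protein, with 14.3 ± 2.11 TPM and PAX6, an eye and brain transcription factor, with 8.52 ± 5.39 TPM. By counts PAX6 had 15, 25 and 14, over 81 listed transcripts and with an end shared throughout. NCAM1, a neural adhesion molecule, had 15, 4 and 25 counts. TUBB3, the neuronal tubulin, had 0 counts, with 1.67% of its end in a single transcript. Of 15 mesenchymal markers 9 were detected, and the list summed to 157 to 206 TPM. COL1A2, S100A4 and THY1 were at 0 in every library, and the ends of COL1A2 and THY1 lie wholly in a single transcript. TWIST1, a mesenchymal transcription factor, had 70.1 ± 10.6 TPM, SNAI2, a repressor of epithelial genes, 38.4 ± 11.6 TPM, and CDH2 (N-cadherin) 25.4 ± 4.43 TPM (SD, n = 3). FN1 (fibronectin) had 27, 33 and 29 counts, with an end shared throughout. The medians per gene were 0.181 TPM for the neuronal, 0.00478 TPM for the epithelial and 2.42 TPM for the mesenchymal list, compared with 0.549 TPM for the 10 filament genes and 0.194 TPM for all nuclear protein-coding genes. Ends shared throughout were those of 7 of 16 epithelial, 8 of 16 neuronal and 5 of 15 mesenchymal markers, and their part in these counts was not tested.

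The genes for proteins that tie filaments to membranes and junctions were detected in 11 of 19 cases, compared with the background of 39.5%. An end shared throughout was found for 10 of the 19. DSG2, a desmosomal cadherin, had 157 ± 11.4 TPM, PKP4, an armadillo protein of junctions, 12.5 ± 5.64 TPM, and DST, a plakin linker, 7.89 ± 2.86 TPM (SD, n = 3). PLEC (plectin), which binds vimentin and keratin filaments, had 0 counts, with an end shared throughout, and this is not read as absence of its mRNA. Of 15 genes for partners and processing enzymes of the lamina, 8 were detected, and 5 of the 15 have an end shared throughout. TMPO, a lamin-binding nuclear protein, had 629 ± 155 TPM, EMD (emerin) 302 ± 117 TPM and ZMPSTE24, the protease that trims prelamin A, 122 ± 43.2 TPM (SD, n = 3). Over the whole family of 69 intermediate filament genes, 8 were detected, a lower share than the background of 39.5%, and 51 were at 0 in every library. Besides those above, the only other gene with a mean of at least 1 CPM was BFSP1, a lens filament gene, with 7, 10 and 6 counts.

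**Figure D4:**
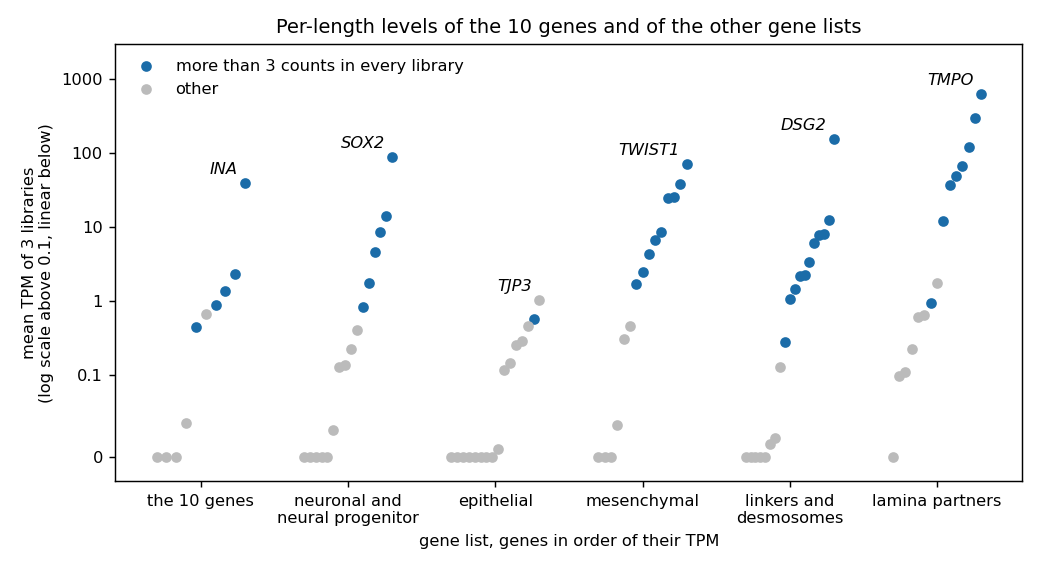
Mean TPM over 3 libraries (y axis, log scale above 0.1 and linear below) of each gene of 6 lists (x axis, genes of a list in order of their TPM), with genes above 3 counts in every library in blue and the rest in grey. INA leads the 10 filament genes at 38.8 TPM, below SOX2 at 89.0 and TWIST1 at 70.1, and the highest epithelial marker is TJP3 at 1.03.

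The genes nearest in level were found among 19912 other protein-coding genes by the distance of log2(CPM + 1) over the 3 libraries. They were CHAC2 for INA, with 84.5, 99.2 and 56.1 CPM and a distance of 0.132, DCLK1 for NES, with 7.69, 7.82 and 12.6 CPM and a distance of 0.146, and SRPK2 for KRT8, with 2.28, 1.28 and 2.93 CPM and a distance of 0.104. With 3 libraries of 1 condition, this likeness describes level alone.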

How the data were processed

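RNA-seq of 3 HEK293T replicates was analysed. The authors deposited 1 table per replicate with 247541 Ensembl transcripts, made, per the submitters' processing notes in the labels, with Trimmomatic 0.38.0, HISAT2 2.2.1 on hg38 and featureCounts. Settings for strand or for reads on several transcripts are not given in the sources used here. Deposited counts are whole numbers of reads per transcript, not normalized. The TPM deposited by the authors is the count divided by the deposited transcript length, scaled to 1000000, and it was recomputed as a check. Division by length lowers long transcripts in a 3′ end library.

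Identifiers without version were joined to GENCODE v44 on GRCh38, which matched 223558 transcripts. The 23983 others held at most 0.166% of the counts. Counts, CPM and TPM were summed per gene. The authors' annotation may differ from v44, and 2 of the 55 transcripts of the members (KRT10-202 and NEFL-201) differ in length. Detected means more than 3 counts in every replicate. In each canonical transcript, the final 300 bases were scored for the share in exactly 1 listed transcript of the strand. Promoters are RefSeq's. Functions were tested on simulated data. Other detection limits, TPM, totals without mitochondrial counts, medians, another 3′ window and leaving out each replicate were tried as alternatives.

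The members, lists and rules were chosen with earlier results of these data known. Named are the members, family genes with at least 1 CPM, the highest pseudogenes of each member (at least 1 CPM, otherwise up to 2), opposite-strand genes, the top 3 and defining markers of each list, and the nearest gene by level. KRT19, GFAP, PRPH, SYNM, DES, PLEC, DCX, ELAVL4, MAPT, SNAP25, COL1A2, S100A4 and THY1 were named after their values were seen. No DNA is shown from chromosome 8, and protein sequences were not used here. Python 3.11.15, numpy 2.4.6, pandas 2.3.3, scipy 1.17.1 and matplotlib 3.10.9 were used.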

Additional observations from a re-analysis of the deposited data

How the results depend on the processing

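The number of detected genes of the 10 was 5, compared with 2 with more than 10 counts in every replicate, 6 with more than 3 counts in at least 1 replicate and 3 with a mean of at least 1 TPM. It was 5 to 6 when 1 replicate was left out, VIM being added, at 0.772 CPM, without replicate 1. Over the 69 intermediate filament genes it was 8, compared with 3 with more than 10 counts, 10 with at least 1 replicate and 6 by TPM, and 8 to 9 when 1 replicate was left out. The pairs of neighbours with ranges that do not overlap were 2, with 3 in TPM, and 4 without replicate 1, 4 without replicate 2 and 3 without replicate 3, which narrows the ranges by construction. The 4 genes with an end wholly of their own stayed 4 with the last 500 bases and with both strands counted. Of 50 levels recomputed without mitochondrial counts, as medians or without 1 replicate, 49 stayed within 1 SD of the mean, and NEFH rose from 1.14 to 1.34 CPM without mitochondrial counts. No paired comparison of conditions was possible because all 3 libraries belong to 1 condition. Genes were compared within the same 3 libraries, but no paired test of genes was run. Counts under about 10 limit VIM, KRT10, NEFH and LMNB1. They also limit KRT8, which had 8 counts in replicate 2 and is not detected under the limit of more than 10 counts.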
